A study of Mus musculus with 8 samples.

Results

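Endoderm is the germ layer that forms the lining of the gut, the lungs and the pharynx, and its cells are held together as a simple epithelium. Foxa factors are forkhead proteins that open endodermal chromatin and switch on endoderm genes, Sox17 works beside them, and the finished tissue secretes carriers such as transthyretin and the apolipoproteins. Epithelial sheets are sealed by claudins and occludin, tied together by E-cadherin and stiffened by keratin filaments built from paired type I and type II chains. In the embryo, pharyngeal endoderm lies against the heart-forming mesoderm, and Tbx1, a T-box transcription factor whose loss is tied to DiGeorge syndrome in humans, is known to act in both.

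The expression of 31 listed endoderm and epithelial genes was examined, out of 55487 genes in the count table. They were taken by name, after matching the table's gene identifiers to mouse symbols, and comprise 6 endoderm transcription factors, 8 secreted endoderm products and signals, 8 epithelial adhesion and junction genes, 4 keratins, and 5 epithelial proteases, inhibitors and regulators. The samples were 4 cultures of parental E14-Tg2a cells, a wild-type mouse embryonic stem cell line, and 4 cultures of its derivative 4D, which carries Tbx1-/-. Both lines received the same serum-free treatment, which differentiates them in vitro into precardiac mesoderm, and were harvested on day 6. All mutant libraries come from 1 line, so what the genotype did and what is peculiar to line 4D cannot be told apart. The labels call the 4 cultures of each line biological replicates.

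Depth was 3803561 to 6293907 counts per library. QuantSeq reads the 3′ end of a transcript, so that a count does not grow with transcript length. Levels are given as CPM (counts per 1e6 counts), scaled between libraries by the trimmed mean of M values. Tbx1 itself had 22 to 65 counts in the parental libraries and 0 to 3 in the mutant libraries, which fits the labels. Mutant library 4 stood apart: its correlations of log2 CPM with the other libraries were 0.857 to 0.881, against a highest value of 0.940 to 0.944 for each of the other 7, and it had counts in 14850 genes where the others had counts in 18213 to 19134. For the called genes, for genes whose fold change reversed without it and for several others, the value without it is also given.

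Of the 31 genes, 22 passed the low-count filter and 9 did not. In edgeR's quasi-likelihood test with Benjamini-Hochberg adjustment over all 13280 tested genes, Foxa2 and Krt18 fell in the mutant line and no gene of the list rose. These were 2 of 22 tested genes, or 9.09%, beside 1.42% of all tested genes in either direction, 0.67% in the lower and 0.745% in the higher direction. The list was chosen with earlier results of these data known, so such shares describe it and are no test of an excess. An unadjusted p under 0.05 was found for 4 of the 22 genes (Foxa2, Krt18, Trh and Ttr), or 18.2%, beside 11.9% of all tested genes. Log2 fold changes were negative for 15 of the 22 genes (68.2%), beside 49.8% of all tested genes, and their median was -0.37 beside 0.00 for all tested genes. Both called genes had non-overlapping libraries, a pattern shown by 7.52% of all tested genes in either direction, 4.04% in the lower and 3.49% in the higher direction. At 2 of 22, the share of non-overlapping genes in the list was near that of all tested genes. In bulk RNA, fewer cells of a type and less RNA per cell cannot be told apart.

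**Figure D1:**
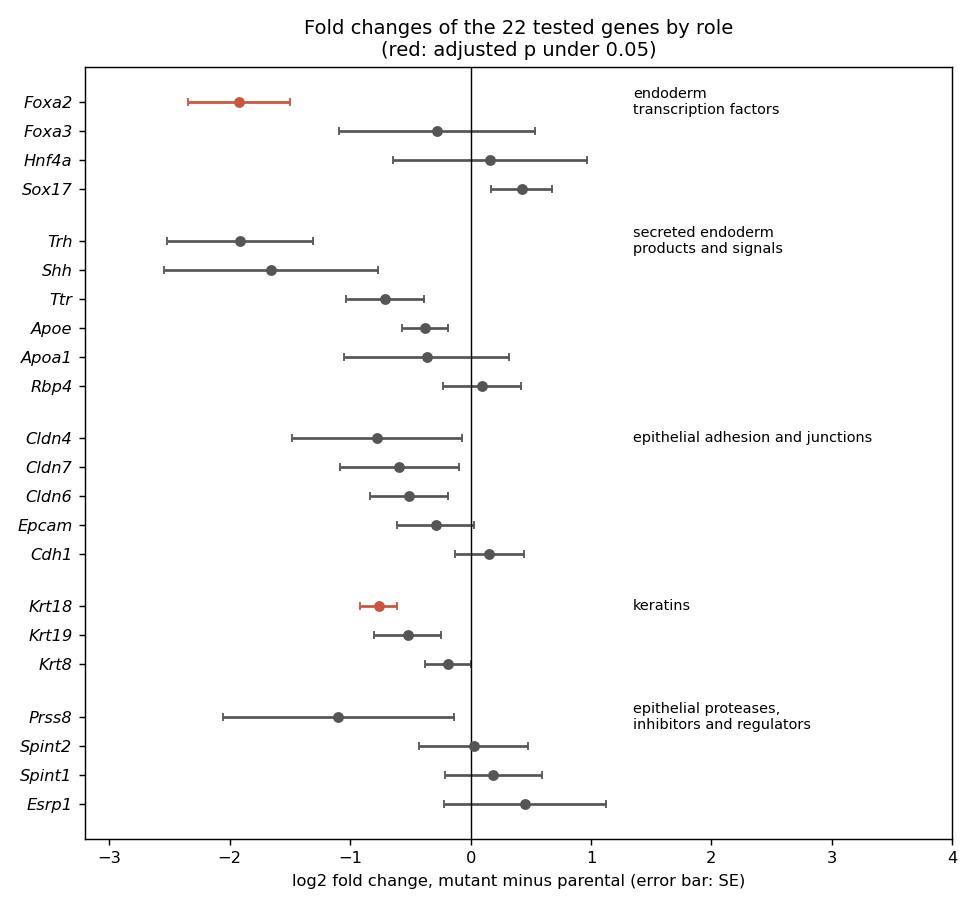
Log2 fold changes (x axis, mutant minus parental, error bars SE, 4 libraries per line) of the 22 tested genes (y axis), grouped by role. Foxa2 and Krt18, in red, had an adjusted p under 0.05, and the other 20, in grey, did not.

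Foxa2 encodes the forkhead factor needed for foregut and for the axial endoderm and notochord. The protein-coding gene (ENSMUSG00000037025.11) spans 148042877 to 148046969 of chromosome 2 on GRCm38, minus strand. Its level was 18.2, 16.7, 12.3 and 14.1 CPM in parental libraries 1 to 4 and 6.72, 3.05, 4.54 and 1.37 CPM in mutant libraries 1 to 4. Every mutant library was below every parental library, and the lowest mutant value was that of library 4, from 5 counts. The means were 15.3 ± 2.63 and 3.92 ± 2.27 CPM (SD, n = 4), and the gene fell by 1.93 on the log2 scale with an SE of 0.42 (edgeR adjusted p = 0.0254). Without mutant library 4 the log2 fold change was -1.67 (edgeR adjusted p = 0.0230). The call was close to the threshold: 8 fits each omitted 1 library, and 2 of them kept it. The edgeR adjusted p was 0.0891, 0.111, 0.0525 and 0.0542 without parental library 1, 2, 3 or 4, and 0.0553 and 0.0597 without mutant library 2 or 3. Over these 8 fits the log2 fold change stayed between -2.32 and -1.67.

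The promoter of Foxa2 is shown because this is the transcription factor of the list that fell. The sequence is the RefSeq window of 250 bases before a transcription start (GRCm38.p6, minus strand, chr2:148046970-148047219), the one of 3 listed starts that lies nearest to the annotated 5′ end of the gene. Capitals, where present in the promoters printed here, mark a match to one of 5 short motifs searched on both strands.
Foxa2: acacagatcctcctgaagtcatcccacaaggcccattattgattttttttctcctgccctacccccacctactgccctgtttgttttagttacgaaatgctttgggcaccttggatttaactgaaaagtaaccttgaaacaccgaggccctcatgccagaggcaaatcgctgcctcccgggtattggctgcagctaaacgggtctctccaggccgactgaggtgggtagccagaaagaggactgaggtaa
The motifs were the T-box half-site TCACACCT, its 7-letter part AGGTGTG, the forkhead site TGTTTAC, the GC box GGGCGG and the TATA core TATAA. The second was added, and the last shortened, after the sequences were seen, and AGGTGTG is contained in the reverse complement of the first. None of the 5 occurs in this Foxa2 window, while windows of other Foxa2 starts hold GGGCGG and TATAA. RefSeq windows were found for 23 of the 31 genes, 32 windows in all. None of them holds TCACACCT, which occurs in 1.12% of all 32851 windows of this length. AGGTGTG is in 4 of the 32, those of Epcam, Krt7, Ocln and Tjp3, and in 5.10% of all windows. TGTTTAC is in 2 windows, Foxa1 and Rbp4, and in 3.17% of all windows. GGGCGG is in 18 of the 32 (32.7% of all windows), and TATAA is in windows of 9 genes (22.8% of all windows). A match describes letters in a window and does not show binding.

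Sox17, the HMG-box factor of definitive endoderm that also marks haemogenic and arterial endothelium, was not called. Its level was 32.5, 29.8, 21.9 and 16.2 CPM in parental libraries 1 to 4 and 43.7, 29.0, 24.5 and 37.7 CPM in mutant libraries 1 to 4. The lines overlapped, with the highest value in mutant library 1 and the lowest in parental library 4. The log2 fold change was 0.42 ± 0.25 (SE), which did not pass the test (edgeR adjusted p = 0.553). The 7 endothelial markers had 0 calls, 6 positive fold changes and a median of 0.35, and their summed level was 422 to 690 CPM in the parental and 505 to 1024 CPM in the mutant libraries. The part of endothelial cells in the Sox17 value was not tested.

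The counts of Foxa2 and Sox17 were therefore set against each other within each library, a measure that does not depend on scaling between libraries and was chosen after the values were seen. The ratio of Foxa2 to Sox17 counts was 0.559, 0.560, 0.562 and 0.870 in the 4 parental libraries. The mutant libraries, in the same order, had ratios of 0.154, 0.105, 0.185 and 0.0365. All mutant ratios lay below all parental ratios, and the log2 difference was -2.61, given as a description without a test because of that choice. Without mutant library 4 the log2 difference was -2.12. The ratio combines the Foxa2 and Sox17 values given above and is no separate evidence of a difference between the lines.

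The other endoderm transcription factors were close to the limit of detection. Foxa1, the forkhead partner of Foxa2, did not pass the low-count filter. It had 40, 8, 10 and 4 counts in parental and 5, 0, 0 and 0 counts in mutant libraries 1 to 4. In CPM the lines did not overlap (two-sided exact permutation test over 70 assignments, p = 0.0286, the smallest that 4 against 4 allow), but parental library 4 at 0.843 CPM and mutant library 1 at 0.840 CPM were nearly equal, and parental library 1 held most of the parental counts. With no filter beyond 1 count, edgeR gave Foxa1 an adjusted p of 0.285. Foxa3, the forkhead paralogue active in gut and liver, had means of 3.60 ± 2.76 (parental) and 2.91 ± 1.85 CPM (mutant; SD, n = 4), and Hnf4a, a nuclear receptor of visceral endoderm and liver, had 1.91 ± 1.04 and 2.18 ± 1.14 CPM. An overlapping gene on the same strand, Gm25881, could share Hnf4a counts. The Foxa3 and Hnf4a log2 fold changes of -0.28 ± 0.81 and 0.16 ± 0.80 (SE) changed sign when mutant library 4 was left out, to 0.08 and -0.10. Gsc, the homeobox factor of the anterior streak, had 9 counts over the parental and 7 over the mutant libraries, so that a difference was not detectable at this depth.

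**Figure D2:**
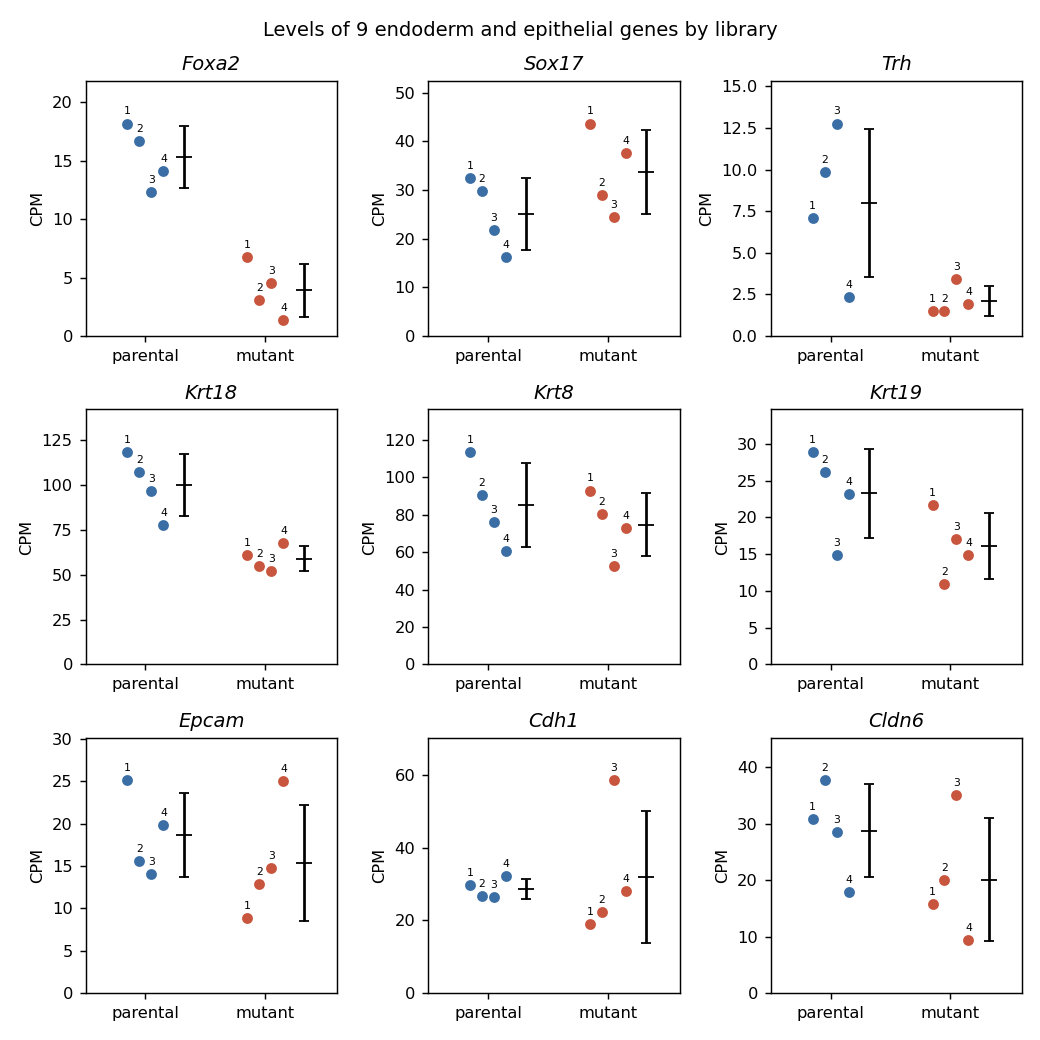
CPM (y axis, from 0) of 9 genes in each parental (blue) and mutant (red) library, numbered by replicate, with the mean and SD of each line in black. The lines separate for Foxa2 and Krt18 and overlap for the other 7 genes.

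Among signals made by endoderm, Trh and Shh had low levels with fold changes near that of Foxa2 that did not pass the test. Trh encodes the precursor of thyrotropin-releasing hormone and is known as a marker of early anterior endoderm. Its level was 7.09, 9.87, 12.8 and 2.32 CPM in parental libraries 1 to 4 and 1.51, 1.53, 3.45 and 1.92 CPM in mutant libraries 1 to 4. Parental library 4 lay among the mutant values, while the other 3 parental libraries were above all mutant values. Its log2 fold change of -1.92 ± 0.61 (SE) had an edgeR adjusted p of 0.150 and a DESeq2 adjusted p of 0.0416. Without parental library 4 the log2 fold change was -2.22 (edgeR adjusted p = 0.0798). Shh, the hedgehog ligand of notochord, floor plate and foregut endoderm, had 13, 20, 30 and 13 counts in parental and 7, 12, 2 and 0 counts in mutant libraries 1 to 4. Its means were 3.37 ± 1.07 and 1.04 ± 1.16 CPM (SD, n = 4), and its log2 fold change was -1.66 ± 0.89 (SE, edgeR adjusted p = 0.496). Mutant library 2 at 2.61 CPM overlapped the parental range, which began at 2.36 CPM, and the log2 fold change was -2.58 without that library and -1.30 without mutant library 4. Cer1, a secreted inhibitor of Nodal, BMP and WNT signals from anterior endoderm, had 11 of its 12 parental counts in library 3 and 0 counts in all mutant libraries. Its parental mean of 0.484 CPM was under the floor of 3 counts, so no fold is given.

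None of the 5 carrier and lipoprotein genes was called. Ttr, the transthyretin gene expressed by visceral endoderm and liver, had 98.4, 74.1, 47.1 and 25.9 CPM in parental libraries 1 to 4 and 38.5, 31.8, 57.4 and 21.4 CPM in mutant libraries 1 to 4. The parental spread was wide and covered 3 of the 4 mutant values. The log2 fold change was -0.71 ± 0.32 (SE, edgeR adjusted p = 0.388), and it was -0.39 without parental library 1. With no low-count filter the edgeR adjusted p was 0.0103, from a fit in which the count of called genes over the whole table was 439. Apoe, the lipid carrier that many cell types besides endoderm express, had 487, 407, 281 and 303 CPM in parental libraries 1 to 4 and 334, 252, 368 and 181 CPM in mutant libraries 1 to 4. The highest value was in parental library 1 and the lowest in mutant library 4, and the ranges overlapped. Its log2 fold change was -0.38 ± 0.19 (SE), or -0.22 without mutant library 4. Rbp4, the retinol carrier, had 19.0 ± 6.19 and 20.2 ± 8.72 CPM. Apoa1, the main protein of high-density lipoprotein, had 4.28 ± 2.99 and 3.28 ± 1.46 CPM with a log2 fold change of -0.37 ± 0.69. Afp, the fetal albumin-like carrier, had 31 counts over the parental and 34 over the mutant libraries, with 0 in 2 libraries of each line. The lines overlapped for all 5 of these genes.

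Keratins gave the second call, and it concerned 1 chain of a pair. Krt18 encodes the type I keratin of simple epithelia, and its type II partner is encoded by Krt8. Krt18 (ENSMUSG00000023043.7, plus strand) spans 102028180 to 102032027 of chromosome 15, and Krt8 (ENSMUSG00000049382.10, minus strand) spans 101996698 to 102004482, so that 23.7 kb separate them. Krt18 had 119, 108, 96.5 and 77.5 CPM in parental libraries 1 to 4 and 61.0, 55.1, 52.1 and 67.9 CPM in mutant libraries 1 to 4. All mutant values were below all parental values, and mutant library 4 was the highest of the mutant libraries. The means were 100.1 ± 17.5 and 59.0 ± 6.96 CPM (SD, n = 4), so that the mutant mean was 59.0% of the parental mean. Krt18 fell by 0.76 on the log2 scale with an SE of 0.15 (edgeR adjusted p = 0.0133), and by 0.84 without mutant library 4 (edgeR adjusted p = 0.00897). Of the 8 fits with 1 library omitted, 5 kept the call. It was lost without parental library 1, parental library 2 or mutant library 3, with edgeR adjusted p of 0.0626, 0.0692 and 0.0535.

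Krt8 had 113, 90.4, 76.0 and 60.5 CPM in parental libraries 1 to 4 and 92.9, 80.4, 52.7 and 72.9 CPM in mutant libraries 1 to 4. These ranges overlapped over most of their length. The log2 fold change was -0.19 ± 0.19 (SE, edgeR adjusted p = 0.771). Krt18 counts divided by Krt8 counts of the same library were 1.04, 1.19, 1.27 and 1.28 in the parental line (libraries 1 to 4), and 0.656, 0.686, 0.990 and 0.932 in the mutant line. Every mutant ratio was below every parental ratio, with a log2 difference of -0.57 that was -0.64 without mutant library 4. This ratio was the second of 2 that were computed, and it too was chosen after the values were seen and has no test.

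**Figure D3:**
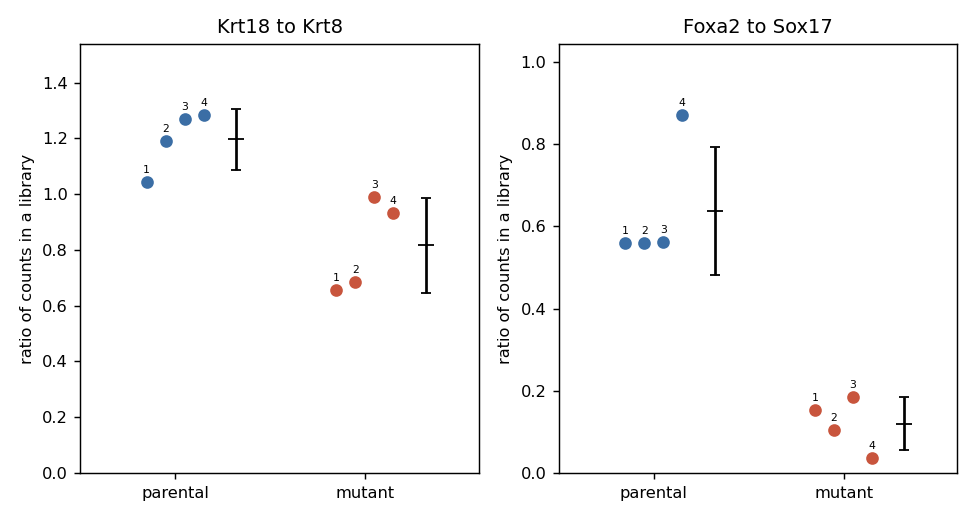
Ratio of counts within a library (y axis, from 0) for Krt18 to Krt8 and for Foxa2 to Sox17, by line, numbered by replicate, with mean and SD in black. Mutant ratios lie below all parental ratios in both panels, at 0.656 to 0.990 against 1.04 to 1.28 on the left and at 0.0365 to 0.185 against 0.559 to 0.870 on the right.

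Krt19 and Krt7 are the other keratins of simple and ductal epithelia. Krt19, a type I chain on chromosome 11, had 28.9, 26.2, 14.8 and 23.2 CPM in parental libraries 1 to 4 and 21.7, 10.9, 17.1 and 14.8 CPM in mutant libraries 1 to 4. Parental library 3 lay inside the mutant range, and the log2 fold change of -0.52 ± 0.28 (SE) did not pass the test (edgeR adjusted p = 0.495). Krt7 (ENSMUSG00000023039.17), a type II chain encoded at 101411043 to 101430313 of chromosome 15, plus strand, had 18, 16, 13 and 3 counts in parental libraries 1 to 4 and 0 counts in all 4 mutant libraries. Its parental mean was 2.21 ± 1.17 CPM (SD, n = 4). That mean was 3.50-fold above the mean mutant floor of 0.632 CPM (3 counts per library), but parental library 4 alone was at 0.632 CPM. A fold for single libraries is therefore not given. The exact permutation test on CPM gave p = 0.0286, the smallest possible. Krt7 failed the low-count filter, and without that filter the edgeR adjusted p was 0.0445. In the 5 fits that left out 1 library and in which it passed the filter, the adjusted p was 0.0662 to 0.141.

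The promoters of the 3 keratin genes of chromosome 15 are shown side by side because they belong to 1 gene family on 1 chromosome and include the called Krt18. Krt8 was not called and Krt7 had no mutant counts, and a difference between the 3 genes was not tested. Each is the part of the RefSeq window of 250 bases before the start that lies outside the exons annotated for the gene, at chr15:102027966-102028179 (plus strand) for Krt18, chr15:102004483-102004592 (minus strand) for Krt8 and chr15:101412153-101412234 (plus strand) for Krt7, on GRCm38.p6.
Krt18: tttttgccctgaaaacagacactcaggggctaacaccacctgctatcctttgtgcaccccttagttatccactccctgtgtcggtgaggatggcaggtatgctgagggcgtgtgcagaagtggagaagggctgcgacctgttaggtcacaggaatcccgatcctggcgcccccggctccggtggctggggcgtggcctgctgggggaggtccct
Krt8: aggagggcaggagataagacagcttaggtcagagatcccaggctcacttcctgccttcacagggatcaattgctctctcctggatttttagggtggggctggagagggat
Krt7: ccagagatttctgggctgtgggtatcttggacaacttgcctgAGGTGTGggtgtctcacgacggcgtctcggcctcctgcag
The capitals in Krt7 mark AGGTGTG, 208 bases before the RefSeq start, and the whole Krt7 window also holds 4 GC boxes. The whole Krt18 window holds TATAA 19 bases before its start, and the Krt8 window holds none of the 5 motifs. The Krt7 window lies inside the gene as annotated by GENCODE M21, whose 5′ end is upstream of the RefSeq start.

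Adhesion and junction genes, which define an epithelium more broadly than endoderm, showed no call among 5 tested genes. Epcam, the epithelial cell adhesion molecule, had 25.1, 15.6, 14.0 and 19.8 CPM in parental libraries 1 to 4 and 8.90, 12.9, 14.7 and 25.0 CPM in mutant libraries 1 to 4. Mutant library 4 was the highest mutant library for Epcam, and the log2 fold change of -0.29 became -0.62 without it. Cdh1 encodes E-cadherin, the adherens junction protein whose loss accompanies the change from epithelium to mesenchyme. It had 29.6, 26.6, 26.5 and 32.2 CPM in parental libraries 1 to 4 and 19.0, 22.2, 58.5 and 28.0 CPM in mutant libraries 1 to 4. Mutant library 3 alone exceeded the parental range, and the log2 fold change of 0.16 ± 0.29 (SE) became -0.33 without it.

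The claudins form the strands of tight junctions, and the 3 tested claudins of the list had negative fold changes. Outside the list, Cldn5, also an endothelial marker, averaged 32.7 CPM in the parental and 59.4 CPM in the mutant libraries, without overlap. Its log2 fold change of 0.87 was not called (edgeR adjusted p = 0.0773), nor was that of Cldn12 at -0.25 (edgeR adjusted p = 0.786). Cldn6, a claudin of embryonic epithelia, had 30.9, 37.7, 28.6 and 17.9 CPM in parental libraries 1 to 4 and 15.8, 20.0, 35.1 and 9.35 CPM in mutant libraries 1 to 4. The lines overlapped through parental library 4 and mutant library 3, and the log2 fold change was -0.51 ± 0.32 (SE, edgeR adjusted p = 0.586), or -0.29 without mutant library 4. Cldn7 averaged 8.48 ± 0.886 CPM in the parental and 5.54 ± 3.52 CPM in the mutant libraries (SD, n = 4), with 1.37 CPM in mutant library 4, and its log2 fold change was -0.59, or -0.29 without that library. Cldn4 had 3.75 ± 0.477 and 2.18 ± 1.76 CPM, with a log2 fold change of -0.78 ± 0.71 that was -1.51 without mutant library 2. Cldn3 lies 39.3 kb from Cldn4 on chromosome 5 and had 1, 6, 5 and 0 counts in parental libraries and 0 in all mutant libraries, too few for a fold. Ocln, the tight junction protein occludin, had 19, 22, 9 and 12 counts in parental and 6, 7, 0 and 2 counts in mutant libraries 1 to 4. Its CPM overlapped only between parental library 3 at 1.44 and mutant library 2 at 1.53 (exact permutation p = 0.0571). Tjp3, a tight junction scaffold, had 18 counts over each line, 16 of them in parental library 2 and 17 in mutant library 3.

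**Figure D4:**
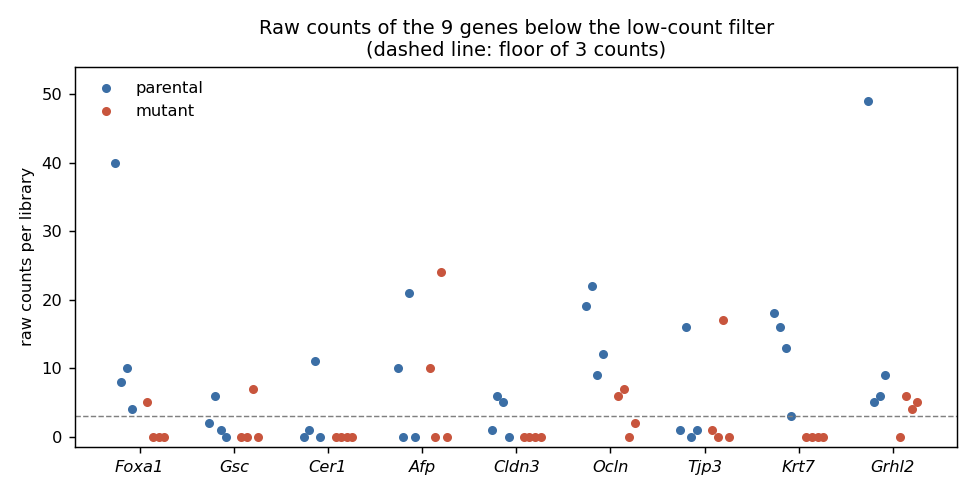
Raw counts per library (y axis) of the 9 genes below the low-count filter, with parental libraries in blue, mutant libraries in red and the floor of 3 counts as a dashed line. Krt7, Cer1 and Cldn3 had 0 counts in all mutant libraries, and Foxa1 and Grhl2 each had 1 parental library far above the rest.

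Epithelial proteases, their inhibitors and epithelial regulators had no call among 4 tested genes. Spint1 and Spint2 encode Kunitz-type inhibitors of membrane serine proteases. Spint1 averaged 7.47 ± 2.16 CPM in the parental and 8.53 ± 2.20 CPM in the mutant libraries, and Spint2 had 8.85 ± 3.13 and 9.07 ± 5.11 CPM (SD, n = 4). For Spint2 the libraries had 5.09, 7.71, 12.3 and 10.3 CPM in the parental and 5.21, 4.14, 12.9 and 14.0 CPM in the mutant line, so that the lines overlapped, and its log2 fold change of 0.03 became -0.25 without mutant library 4. Prss8, the membrane-anchored protease prostasin, had 3.64, 4.13, 7.34 and 2.53 CPM in parental libraries 1 to 4 and 0, 2.83, 5.27 and 0 CPM in mutant libraries 1 to 4, and its log2 fold change was -1.10 ± 0.96 (SE). It was -2.20 without mutant library 3, -0.72 without mutant library 4, -2.75 with limma-voom and -2.07 with a replicate block. Esrp1, the splicing regulator that sets epithelial isoforms, had 1.09, 4.84, 8.30 and 9.27 CPM in parental libraries 1 to 4 and 2.35, 1.96, 10.9 and 17.3 CPM in mutant libraries 1 to 4. Its highest value was in mutant library 4, and its log2 fold change of 0.45 ± 0.67 became -0.21 without that library. Grhl2, a grainyhead factor that maintains E-cadherin and claudin expression, had 49, 5, 6 and 9 counts in parental and 0, 6, 4 and 5 counts in mutant libraries 1 to 4, so that parental library 1 held most of the parental counts.

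Across the list, single libraries differed as much as the lines did for many genes. Parental library 1 was the highest of all 8 for 7 of the 22 tested genes, and mutant library 4 was the lowest for 8 of them but the highest for 3. The summed level of the 4 keratins was 162 to 264 CPM in the parental and 122 to 176 CPM in the mutant libraries. For the 8 adhesion and junction genes the sums were 82.0 to 101 and 52.4 to 123 CPM, and for the 6 endoderm transcription factors they were 38.1 to 66.0 and 35.1 to 56.1 CPM. All 3 ranges overlapped between the lines. The number of genes of the list called lower was 0, 0, 1 and 1 without parental library 1, 2, 3 or 4, and 1 and 0 without mutant library 2 or 3, and 2 without mutant library 4.

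**Figure D5:**
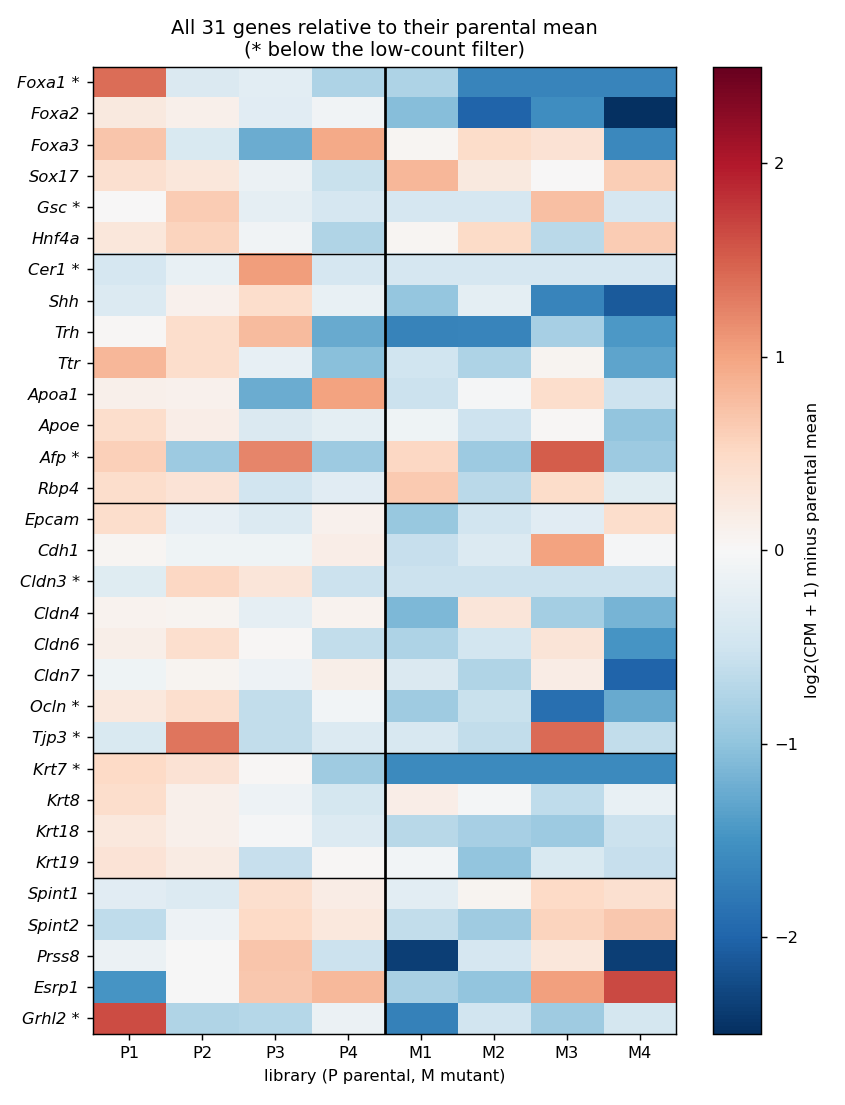
Level of all 31 genes (rows, grouped by role) in the 8 libraries (columns), as log2(CPM + 1) minus the mean of the parental libraries, with blue below and red above it. In all 4 mutant libraries 11 genes lie below their parental mean (Foxa1, Foxa2, Cer1, Shh, Trh, Cldn3, Ocln, Krt7, Krt18, Krt19 and Grhl2) and 1, Sox17, lies above it. Of these, Foxa1, Cer1, Cldn3, Ocln, Krt7 and Grhl2 did not pass the low-count filter. Cer1, Cldn3 and Krt7 had 0 counts in all mutant libraries and so lie below any parental mean above 0. The share of all genes with this pattern was not computed, so the counts only describe the list.

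Further genes of the same tissues were taken from 2 lists, 46 other endoderm genes and 58 other epithelial genes, with 1 gene in both. Of 57 tested genes in these lists, 5 were called (8.77%, beside 1.42% of all tested genes), 3 higher and 2 lower. Both lists were chosen with earlier results of these data known, so this share describes them and is no test of an excess. Among 28 tested endoderm genes, Gata6 rose, Cdx2 and Slc2a3 fell, and the median log2 fold change was -0.42. Gata6, a zinc finger factor of endoderm and of heart mesoderm, averaged 129 ± 21.0 CPM in the parental and 213 ± 18.2 CPM in the mutant libraries (SD, n = 4), a log2 fold change of 0.72 ± 0.13 (edgeR adjusted p = 0.00516). Cdx2, the caudal factor of hindgut endoderm and of posterior mesoderm, had 133 ± 35.6 and 73.7 ± 17.6 CPM, a log2 fold change of -0.85 ± 0.19 (edgeR adjusted p = 0.0236). The Cdx2 call was lost without parental library 2 or 4 and without mutant library 1 or 3, at adjusted p of 0.0979, 0.0967, 0.0844 and 0.0813. Slc2a3 encodes a glucose transporter that is not restricted to endoderm, and it had 305 ± 42.8 and 163 ± 34.3 CPM, a log2 fold change of -0.91 ± 0.14 (edgeR adjusted p = 0.00174).

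Among 30 tested epithelial genes of the second list, Klf5 and Dsc2 rose, none fell, and the median log2 fold change was -0.09. Klf5, a Krüppel-like factor of epithelia and early embryonic cells, averaged 31.7 ± 3.69 CPM in the parental and 65.3 ± 21.3 CPM in the mutant libraries (SD, n = 4), a log2 fold change of 1.04 ± 0.21 (edgeR adjusted p = 0.0135). Its call was lost without parental library 2, parental library 3 or mutant library 3, at adjusted p of 0.0702, 0.0766 and 0.0663. Dsc2, a desmosomal cadherin made by epithelia and by heart muscle, had 25.3 ± 7.18 and 56.4 ± 10.1 CPM, a log2 fold change of 1.15 ± 0.21 (edgeR adjusted p = 0.00671). Gata6, Slc2a3 and Dsc2 kept their calls without any 1 library. Epithelial genes thus included calls in both directions, with Krt18 lower and Klf5 and Dsc2 higher.

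Markers of several cell types were counted in the same fit, and only some of these marker lists share genes with the list under study. The 10 mesenchyme markers had 2 calls, Twist1 and Col3a1, both higher, with 8 positive and 2 negative fold changes. Their summed level was 1541 to 1756 CPM in the parental and 1968 to 2999.7 CPM in the mutant libraries. Of this, Col3a1 averaged 87.0 and 425 CPM. The 6 erythroid markers had 3 calls, all higher, with sums of 112 to 166 and 603 to 882 CPM. All 3 were globin genes (Hba-x, Hbb-bh1 and Hbb-y). Gata1, Klf1 and Alas2 overlapped between the lines (edgeR adjusted p = 0.783, 0.635 and 0.796). The 8 cardiomyocyte markers had 0 calls and 8 negative fold changes, with sums of 487 to 2833 CPM in parental libraries, 591 to 709 CPM in mutant libraries 1 to 3 and 69.0 CPM in mutant library 4. Pluripotent cells, which also make Epcam, Cdh1 and Krt8 RNA, were represented by 10 markers with 1 call, Klf2, which was higher. Their sums were 42.8 to 72.2 and 66.9 to 98.6 CPM, of which Klf2 averaged 19.8 CPM in the parental and 41.3 CPM in the mutant libraries. Of the 7 tested markers, 5 had positive and 2 negative fold changes, with Tdgf1 at 16.5 and 7.58 CPM. Pou5f1, Zfp42 and Fgf4 were below the filter. Visceral endoderm (8 markers), surface ectoderm (6), neural ectoderm (6) and node and notochord (5) had 0 calls. Simple epithelium and definitive endoderm had 1 call each, Krt18 and Foxa2. These repeat the calls given above. All simple epithelium markers are genes of the list, as are Foxa2, Sox17, Foxa1 and Cer1 among the definitive endoderm markers. Ttr, Afp, Apoa1 and Hnf4a of the visceral endoderm markers also belong to the list. No marker of these lists was at 0 in all libraries. The part of these cell types in the Foxa2 and Krt18 values was not tested.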

How the data were processed

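RNA from 8 cultures was made into QuantSeq 3′ libraries, per the labels' protocols. The authors deposited 1 table of raw counts, whole numbers per gene and library, without normalization or pooling. Per the submitters' processing notes, STAR, featureCounts and the build mm10 were used. Versions, annotation and duplicate handling are not given in the sources used here, and the table's name states forward-strand counting. Of 55487 gene identifiers, 55141 were given a symbol from GENCODE M21 (GRCm38), whose coordinates are printed. Promoter windows are RefSeq's on GRCm38.p6.

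Genes were filtered with filterByExpr of edgeR 4.0.16 at its defaults, which left 13280 genes with 99.5% of counts. Counts were scaled by TMM, and lines were compared with glmQLFit and glmQLFTest (R 4.3.3) with an intercept and the line. P-values are two-sided and were adjusted by Benjamini-Hochberg over all tested genes with a threshold of 0.05. Each SE is the log2 fold change over the square root of F. Depth was 3803561 to 6293907 counts per library, and the floor was set at 3 counts per library. Floors cover counting error only, since no molecular identifiers are mentioned. The CPM of genes below the filter were compared by exact permutation tests over 70 assignments, without adjustment.

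Groups and replicate numbers came from the sample titles. The members and lists were chosen with earlier results of these data known. Every member is accounted for, and library values are given for called members and for those of each role with the highest level or smallest p, among others. Genes of the further lists were named where called, and so were the claudins Cldn5 and Cldn12. Libraries of 1 line were checked for duplicates: chi-square per degree of freedom was 7.04 to 24.2 in the 12 pairs, so all 8 were used. Alternatives were RLE size factors, library size alone, no filter beyond 1 count, a filter on mean counts (10 or more), DESeq2 1.42.0, limma-voom (limma 3.58.1), the replicate number as a block, and leaving out each library. Leaving out each library for the 2 ratios was added after seeing the data.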

Additional observations from a re-analysis of the deposited data

Results flagged for a closer look

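The 22 tested genes gave 44 groups of 4 libraries, and a library stood far from the other 3 in 2 of them, where chance gives about 1 in 20 groups. Both concern Cldn4. Parental library 3 had 3.03 CPM, below the 3.95 to 4.00 CPM of the other parental libraries, a gap that is large only against their narrow range. Mutant library 2 had 4.79 CPM, above the 1.10 to 1.63 CPM of the other mutant libraries and above all parental libraries.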

How the results depend on the processing

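The count of genes called over the whole table was 188. It was 439 with no filter beyond 1 count, 399 with DESeq2 and 103 to 235 when single libraries were left out. The other 5 alternatives gave 157 to 252 genes, with 100 higher and 57 lower when scaled by library size alone. The number of genes of the list called lower, 2 in the main analysis, was 4 with no filter (Foxa2, Krt18, Krt7 and Ttr), 3 with DESeq2 (Trh added), 1 with limma-voom (Krt18) and 0 to 2 when single libraries were left out. With limma-voom the adjusted p of Foxa2 was 0.05002. No gene of the list was called higher under any of the 15 alternatives. DESeq2 gave no adjusted p for Foxa3, Hnf4a, Shh, Apoa1, Cldn4 and Prss8, so that fit could not call them. Their DESeq2 fold changes are not among the 324 counted below. The median log2 fold change of the tested genes was -0.58 to -0.27 when single libraries were left out and -0.38 to -0.34 otherwise. Over 324 refitted fold changes, 20 changed sign, in 7 of the 22 genes and none of them past the threshold. With limma-voom these were Foxa3 (0.041), Apoa1 (0.033) and Spint2 (-0.15). Leaving out single libraries gave ranges of -0.64 to 0.16 for Foxa3, -0.12 to 0.47 for Hnf4a, -0.71 to 0.15 for Apoa1, -0.15 to 0.29 for Rbp4, -0.33 to 0.34 for Cdh1, -0.25 to 0.26 for Spint2 and -0.21 to 0.77 for Esrp1. The cause was not tested. The ratio differences stayed negative without any 1 library, at -0.67 to -0.48 for Krt18 to Krt8 and -2.90 to -2.12 for Foxa2 to Sox17.

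Replicate numbers 1 to 4 occur in both lines, but no label ties same-numbered cultures together, and the correlation of their deviations was -0.03 to 0.10, so the numbers were not taken as pairs. A fit with a replicate block called 234 genes over the table, and Foxa2 and Krt18 remained the called genes of the list, at -2.06 (adjusted p 0.0190) and -0.76 (0.0195). Spint2 had -0.069 under the block. Of 8 libraries, 3 correlated best with their own number. Depth limits the 9 genes below the filter, which have no value in the main test.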
